A study of Homo sapiens with 12 samples.

Results

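The genes examined here code for the replication-dependent histones, the core histones H2A, H2B, H3 and H4 and the linker histone H1 that package newly copied DNA. Their probes were chosen by gene name alone, as every bead probe whose annotated symbol is H1-1 to H1-6 or begins with H2AC, H2BC, H3C or H4C followed by a number (formerly HIST1 to HIST4), and which was detected on at least 3 of the 12 arrays at a detection p-value under 0.05. Of 47319 probes on the array, 79 carried such a symbol, for 69 genes, and 52 probes of 47 genes were detected in this way. They comprise 3 probes of H1, 10 of H2A, 16 of H2B, 13 of H3 and 10 of H4. RNA came from 2 established human cell lines of Ewing sarcoma, TC32 and SKNMC, grown in RPMI-1640 with serum. Each line received either DMSO vehicle at 0.1% by volume or NU7441 at 40 µM, and RNA was taken after 48 h, which gives 4 groups of 3 arrays. NU7441 inhibits DNA-PK, a kinase of DNA break repair whose catalytic subunit is the product of PRKDC. The labels do not say whether the 3 arrays of a group are separate cultures. The p-values below therefore reflect array-to-array spread that may be only technical. The titles of all 6 vehicle samples, and of no NU7441 sample, carry a mark (2) of unstated meaning. If it marks a separate run, that run and the treatment cannot be told apart.

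Replication-dependent histone genes lie in clusters and are transcribed in S phase, under the coactivator NPAT. Their mRNAs are unlike other mRNAs in ending with a stem-loop in place of a poly(A) tail, and the stem-loop binding protein SLBP and the U7 small nuclear ribonucleoprotein carry out that processing. Some of these genes, among them H2BC5, H2BC12, H2BC21, H2AC6 and H1-2, are also known to make polyadenylated transcripts, and the labelling kit named in the labels primes cDNA from poly(A). The proteins differ little within a class and several genes have near-identical copies, such as H2AC18 and H2AC19 or the H3 and H4 genes, so a probe can report a copy other than the gene it is named for.

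The promoter sequences of 44 of the 47 genes were matched by Entrez number in a RefSeq table of assembly GRCh38.p14, 31 on chromosome 6 and 13 on chromosome 1. Each window runs from 250 bases before to 50 bases after the gene's start and holds 300 bases. The 5 windows shown belong to the genes whose rise in SKNMC was called with and without the arrays that stand apart, described next. Capitals mark TATAAA, the TATA box, CCAAT, the box bound by NF-Y, and TTTGCAT, the core of the octamer bound by POU2F1, each on either strand.
H2BC5, chr6:26157871-26158170, plus strand: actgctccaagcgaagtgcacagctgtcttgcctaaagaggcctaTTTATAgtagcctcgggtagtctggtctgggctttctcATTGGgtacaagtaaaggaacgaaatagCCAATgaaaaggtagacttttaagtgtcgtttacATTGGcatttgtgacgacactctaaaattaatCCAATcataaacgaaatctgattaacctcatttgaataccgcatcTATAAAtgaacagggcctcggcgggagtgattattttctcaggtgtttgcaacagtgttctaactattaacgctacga
H2BC21, chr1:149886633-149886932, minus strand: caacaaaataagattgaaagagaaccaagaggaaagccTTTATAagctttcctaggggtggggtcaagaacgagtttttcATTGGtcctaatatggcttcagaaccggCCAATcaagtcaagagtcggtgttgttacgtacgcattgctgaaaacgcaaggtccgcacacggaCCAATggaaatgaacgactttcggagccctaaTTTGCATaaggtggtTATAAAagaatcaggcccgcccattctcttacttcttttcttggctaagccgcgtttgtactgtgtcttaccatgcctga
H2AC6, chr6:26123922-26124221, plus strand: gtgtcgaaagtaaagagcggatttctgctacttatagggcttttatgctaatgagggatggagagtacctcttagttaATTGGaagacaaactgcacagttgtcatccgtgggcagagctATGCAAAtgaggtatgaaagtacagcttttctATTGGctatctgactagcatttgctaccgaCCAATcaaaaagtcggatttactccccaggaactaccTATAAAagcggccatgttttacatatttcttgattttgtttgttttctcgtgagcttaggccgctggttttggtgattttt
H2AC11, chr6:27132793-27133092, plus strand: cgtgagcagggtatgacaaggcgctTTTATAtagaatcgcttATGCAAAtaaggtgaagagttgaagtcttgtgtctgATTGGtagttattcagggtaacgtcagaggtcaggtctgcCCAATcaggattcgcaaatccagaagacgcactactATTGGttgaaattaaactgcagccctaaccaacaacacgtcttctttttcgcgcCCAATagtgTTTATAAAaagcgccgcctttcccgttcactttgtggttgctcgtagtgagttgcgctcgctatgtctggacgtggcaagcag
H4C8, chr6:26285485-26285784, minus strand: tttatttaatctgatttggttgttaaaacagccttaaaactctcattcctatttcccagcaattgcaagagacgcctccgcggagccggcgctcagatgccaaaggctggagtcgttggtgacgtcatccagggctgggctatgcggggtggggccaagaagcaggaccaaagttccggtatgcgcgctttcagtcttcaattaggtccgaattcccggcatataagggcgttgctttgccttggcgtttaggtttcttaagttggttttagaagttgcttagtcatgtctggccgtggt
TATAAA was found in 31 of the 44 windows (70.5%) and in 11.5% of the 35116 promoter windows of the table. CCAAT was found in 36 of the 44 (81.8%) against 34.6% of all windows, in every matched H1, H2A, H2B and H3 gene and in 0 of 8 H4 genes. TTTGCAT was found in 17 of the 44 (38.6%) against 4.46% of all windows, in 6 of 9 H2A and 11 of 14 H2B genes and in 0 H1, H3 or H4 genes. In the 5 windows shown, H2BC21, H2AC6 and H2AC11 hold all 3 motifs, H2BC5 holds TATAAA and CCAAT without TTTGCAT, and H4C8 holds none of the 3. A match describes the letters in the window and says nothing of whether a factor binds there.

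Levels are given as normalized log2 intensity, and a difference of 1 is a doubling. Calls required a fold change of at least 1 on the log2 scale in either direction and an adjusted p (Benjamini-Hochberg, all 21753 detected probes) below 0.05 in limma's moderated test. Across the series 17944 to 20148 probes were detected per array, and the mean raw intensity was 158 to 199. Arrays of one group correlated across detected probes at 0.985 or more in both vehicle groups, at 0.968 to 0.989 in TC32 NU7441, and at 0.962 and 0.963 between SKNMC NU7441 replicate 1 and the other two, which correlated at 0.992. Ewing sarcoma markers, including CD99 and FLI1, were detected for 6 of 6 genes, and of the blood cell markers CD14 was detected and PTPRC and CD3E were not. Of 6 fibroblast markers, COL1A2, DCN and LUM were detected on 0 TC32 arrays and on all 3 SKNMC vehicle arrays. COL1A1, COL3A1 and PDGFRB were detected in TC32 too, on 2, 3 and 3 of the 3 vehicle arrays. Under vehicle COL1A1 was lower in TC32 than in SKNMC (-2.29), whereas COL3A1 (0.77) and PDGFRB (-0.23) were not called.

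The NU7441 arrays differed from one another in ribosomal RNA signal. The probe for 28S ribosomal RNA (RNA28SN5), an RNA without a poly(A) tail, read 5.06, 4.86 and 5.13 on the TC32 vehicle arrays and 8.24, 9.31 and 12.69 on the TC32 NU7441 arrays. It read 4.50, 4.43 and 4.17 in SKNMC vehicle and 4.33, 12.32 and 12.41 in SKNMC NU7441. Replicate 3 of TC32 NU7441 and replicates 2 and 3 of SKNMC NU7441 thus stood apart, and the calls on the response to NU7441 are given with and without these 3 arrays. This choice was made with earlier results of these data known. The mean of the 52 histone probes was 4.92, 4.996 and 4.89 in TC32 vehicle and 4.91, 4.94 and 6.09 in TC32 NU7441. It was 5.35, 5.33 and 5.27 in SKNMC vehicle and 5.67, 6.44 and 6.46 in SKNMC NU7441. The highest histone mean of each line's treated arrays thus fell on the same arrays as the highest 28S signal. TC32 NU7441 replicates 1 and 2 had 28S signal above every vehicle array and a histone mean within the TC32 vehicle range.

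**Figure D1:**
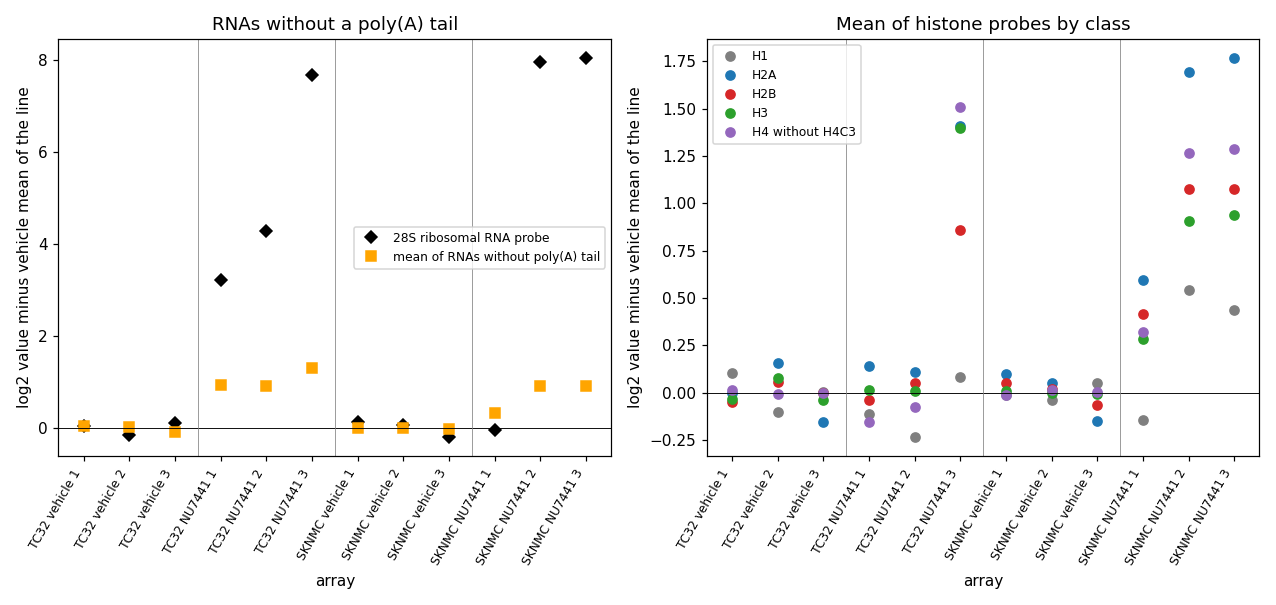
Each of the 12 arrays (x axis) with its log2 value minus the vehicle mean of its line (y axis). The left panel shows the 28S ribosomal RNA probe and the mean of RNAs without a poly(A) tail, and the right panel the mean of the histone probes of each class, H4 without H4C3. The H2A, H2B, H3 and H4 means and the 28S signal were highest on TC32 NU7441 replicate 3 and on SKNMC NU7441 replicates 2 and 3.

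Of the 52 probes, 17 were detected on all 12 arrays and 5 on the minimum of 3. Those at the minimum (H1-5, H2BC15, H2BC26, H3C13 and H4C4) had mean levels of 4.34 to 4.65. The 4 probes detected on 2 arrays, which fell just outside (H1-3, H2BC6, H3C11 and a probe shared by H3C11 and H3C6), had mean levels of 4.29 to 4.34. Detection also followed the treated arrays that stood apart, since 48 of 52 probes were detected on TC32 NU7441 replicate 3 against 23 and 26 on replicates 1 and 2. In SKNMC NU7441 39, 50 and 49 probes were detected, against 33 to 39 in vehicle, and in TC32 vehicle 25 to 33 were. A total of 5 probes were detected on NU7441 arrays alone, those of H2BC15, H2BC18, H3C4 and H4C4 and 1 of the 3 probes of H3C13. A probe that passed only through the treated arrays had to be higher there, so counts over the 52 describe the probes and test nothing about them as a class.

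**Figure D2:**
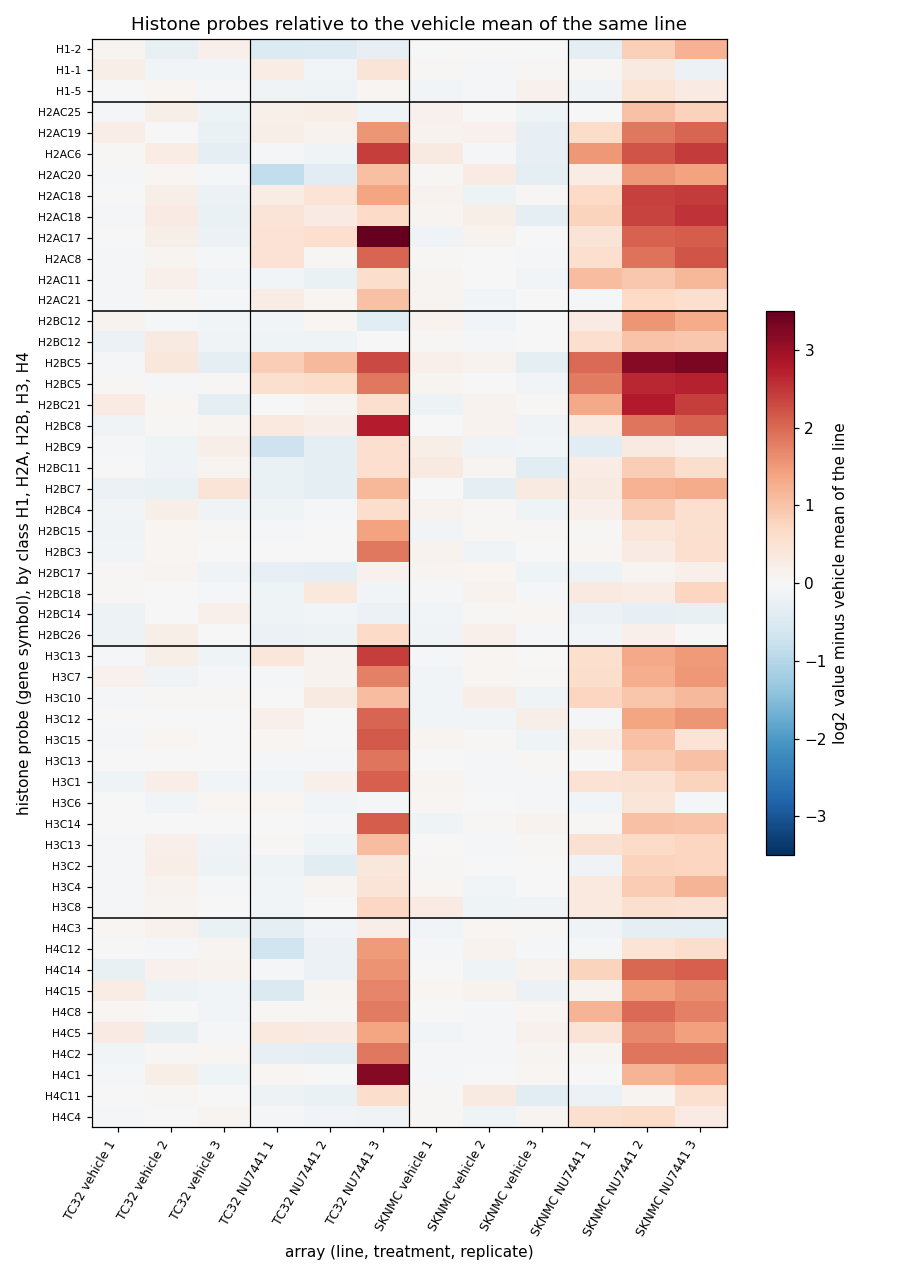
Each of the 52 detected histone probes (rows, ordered by class) on each of the 12 arrays (columns), coloured by its log2 difference from the mean of its own line's vehicle arrays. Rises of 1 or more fill the TC32 NU7441 replicate 3 column (29 of 52 probes) and the SKNMC NU7441 replicate 2 and 3 columns (26 and 28), with 0 and 1 on the remaining TC32 arrays and 6 on SKNMC NU7441 replicate 1.

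Under vehicle, the lines differed in a few histone genes, all lower in TC32. Of 52 probes 4 were called lower in TC32 than in SKNMC and 0 higher. That is 7.69% lower, where 2.08% of all detected probes were called lower and 1.06% higher. The median difference was -0.17 over the histone probes and 0.01 over all probes. Both probes of H2BC12, an H2B gene that also makes polyadenylated mRNA, were called. Probe ILMN_1813314 read 5.82, 6.36 and 5.92 in TC32 vehicle and 7.80, 7.68 and 7.77 in SKNMC vehicle, so the groups did not overlap, and the difference was -1.72 ± 0.16 (SE; limma adjusted p = 4.53e-06). Probe ILMN_1796179 read 7.64, 7.47 and 7.41 against 9.25, 9.05 and 9.12, again without overlap, a difference of -1.63 ± 0.25 (adjusted p = 0.000497), or 3.10-fold lower in TC32. The linker histone H1-2 read 6.83, 6.45 and 6.90 in TC32 vehicle and 7.92, 7.94 and 7.89 in SKNMC vehicle, a difference of -1.19 ± 0.28 (adjusted p = 0.0139). One of the 2 probes of the H2A gene H2AC18 (ILMN_1659047) read 5.39, 5.61 and 5.18 against 6.80, 6.50 and 6.72, also without overlap, a difference of -1.28 ± 0.38 (adjusted p = 0.0417). This H2AC18 call was lost in 7 of the 12 fits that each left out 1 array, with adjusted p up to 0.140, those without any of the 6 vehicle arrays in turn and without TC32 NU7441 replicate 2. That of H1-2 was lost in 3 (without TC32 vehicle replicate 2 or SKNMC vehicle replicate 1 or 2), with adjusted p up to 0.0745, and those of H2BC12 in 0. The other H2AC18 probe (ILMN_2144426) differed by -0.85 (adjusted p = 0.135) and was not called. H2AC6 differed by -1.60 and was not called either (adjusted p = 0.0539), although its vehicle groups did not overlap. Its SE of 0.50 comes from a spread shared with the treated groups. The SD of H2AC6 was 1.46 in TC32 NU7441 and 0.30 in each vehicle group. In bulk RNA, fewer cells with an active gene and less RNA per cell cannot be told apart, here and in what follows.

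In SKNMC, 14 histone probes of 12 genes rose with NU7441 by the test and 0 fell. These 14 are 26.9% of the 52 probes, where 3.05% of all detected probes were called higher and 4.26% lower. The median log2 fold change was 0.75 over the histone probes and 0.02 over all detected probes. At an unadjusted p under 0.05, 31 of the 52 probes differed, where 37.2% of all detected probes did. In 29 of 52 every NU7441 array was above every vehicle array and in 2 (H2BC14 and H4C3) every one was below, where 21.5% and 20.9% of all detected probes did so. H2BC14 was detected on 0 of the 3 treated arrays, so its values there have no order. Of the 34 probes detected on at least 3 of the 6 vehicle arrays of both lines together, 13 were called higher, all of the 14 but that of H2AC8. The share called among all probes with such vehicle detection was not computed, so this count has no background to set it against. Without replicates 2 and 3, which stand apart, 6 probes of 5 genes were called higher and 0 lower, where 2.05% of all probes were called higher and 2.54% lower. That comparison sets 1 treated array against 3 vehicle arrays and takes its spread to be that of the other groups.

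The H2A genes, whose products pair with H2B in the nucleosome, held 6 of the 14 calls, from 10 probes. Their median log2 fold change was 1.52 and the lowest was 0.41. H2AC6 read 7.12, 6.76 and 6.52 with vehicle and 8.31, 8.99 and 9.24 with NU7441. All 3 treated arrays were above all 3 vehicle arrays, and H2AC6 rose by 2.05 ± 0.50 (SE; adjusted p = 0.00762), or 4.13-fold. H2AC18, which has 2 probes, read 6.80, 6.50 and 6.72 against 7.38, 9.06 and 9.11 on ILMN_1659047 and rose by 1.84 ± 0.38 (adjusted p = 0.00285). On ILMN_2144426 it rose by 1.90 ± 0.34 (adjusted p = 0.00114). On both probes replicate 1 was the lowest of the treated arrays and was still above the vehicle arrays. H2AC19, a near-identical copy of H2AC18, read 6.97, 6.99 and 6.55 with vehicle and 7.47, 8.67 and 8.86 with NU7441, and rose by 1.50 ± 0.37 (adjusted p = 0.00821). The probes of H2AC18 and H2AC19 may read the same transcripts and are not independent. H2AC11 read 4.70, 4.61 and 4.50 with vehicle and 5.68, 5.56 and 5.75 with NU7441. It rose by 1.06 ± 0.19 (adjusted p = 0.00109), and its 3 treated arrays were alike, including those that stand apart. Its vehicle values lay close to the lowest detected signal of those arrays (4.41 to 4.44). In 5 of 14 alternatives other than leaving out 1 array its call was lost, with changes from 0.39 to 1.11 over the 14. A further H2AC11 probe (ILMN_2184602), annotated to the same transcript, was detected on 0 of 12 arrays. H2AC8 was detected on 1 of 3 vehicle arrays, read 4.44, 4.42 and 4.34 there and 4.99, 6.29 and 6.59 with NU7441, a change of 1.56 ± 0.43 (adjusted p = 0.0151). It was detected on 0 TC32 vehicle arrays and so passed the detection filter only with the treated arrays. Its call therefore describes the values and is no test of them. The uncalled H2A genes were H2AC17, H2AC20, H2AC21 and H2AC25. H2AC17 had a log2 fold change of 1.54, close to those called, with an SE of 0.61 and an adjusted p of 0.0761.

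Of the 16 H2B probes 4 were called, of 3 genes, and their median log2 fold change was 0.55. The 2 detected probes of H2BC5 had the largest changes of the 52. A further H2BC5 probe (ILMN_1777405), annotated to another RefSeq transcript, was detected on 0 of 12 arrays. ILMN_1651496 read 6.49, 6.43 and 5.99 with vehicle and 8.30, 9.48 and 9.61 with NU7441, and rose by 2.83 ± 0.37 (adjusted p = 0.000115), or 7.09-fold. ILMN_1758623 read 6.27, 6.19 and 6.08 against 7.99, 8.81 and 8.87, and rose by 2.37 ± 0.29 (adjusted p = 6.88e-05), or 5.19-fold. Neither probe's groups overlapped, and replicate 1, the lowest treated array, was above every vehicle array on both. H2BC21, an H2B gene on chromosome 1, read 4.85, 5.14 and 5.05 with vehicle and 6.34, 7.80 and 7.43 with NU7441. It rose by 2.17 ± 0.29 (adjusted p = 0.000165), or 4.51-fold, again with no overlap. H2BC12 disagreed between its probes. ILMN_1796179 read 9.25, 9.05 and 9.12 with vehicle and 9.42, 10.67 and 10.44 with NU7441 and rose by 1.03 ± 0.25 (adjusted p = 0.00695). ILMN_1813314 differed by 0.85 ± 0.16 (adjusted p = 0.00157), under the fold minimum.

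Among the H3 genes, which with H4 form the core tetramer, 1 of 13 probes was called, with a class median of 0.66. H3C7 read 4.57, 4.75 and 4.70 with vehicle and 5.29, 5.95 and 6.20 with NU7441, and rose by 1.14 ± 0.36 (adjusted p = 0.0304) without overlap. H3C10 (0.95, adjusted p = 0.00572) passed on adjusted p and missed the fold minimum. H3C4 was detected on 0 of 6 vehicle arrays and on all 3 SKNMC NU7441 arrays, so it entered only through the treated arrays, and it read at least 1.56-fold higher there, a description with no test. H3C13, the H3 gene with the highest probe mean over the 12 arrays, read 4.86, 4.97 and 4.90 with vehicle and 5.46, 6.24 and 6.40 with NU7441 on ILMN_1664706. That change of 1.12 ± 0.43 was not called (adjusted p = 0.0682). The other 2 probes of H3C13 were detected on 0 SKNMC vehicle arrays and were not called. ILMN_1793461 was detected on all 3 treated arrays and was at least 1.45-fold higher there. On ILMN_3249188 the treated arrays read 4.35, 5.24 and 5.40. Replicate 1 was undetected and within the vehicle range of 4.31 to 4.42, so only replicates 2 and 3, which stand apart, were higher.

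Of the 10 H4 probes 3 were called, with a class median of 0.96. H4C8 read 5.05, 5.01 and 5.14 with vehicle and 6.25, 7.03 and 6.82 with NU7441, and rose by 1.64 ± 0.36 (adjusted p = 0.00394), or 3.12-fold. H4C14 read 5.51, 5.35 and 5.62 against 6.29, 7.51 and 7.58, and rose by 1.63 ± 0.40 (adjusted p = 0.00785). H4C5 read 4.70, 4.71 and 4.95 against 5.22, 6.47 and 6.21, and rose by 1.19 ± 0.31 (adjusted p = 0.0123). The groups did not overlap on any of the 3. H4C3, the H4 gene with the highest probe mean, read 12.30, 12.44 and 12.41 with vehicle and 12.28, 12.08 and 12.06 with NU7441. Its change of -0.25 ± 0.16 was not called (adjusted p = 0.282), although its treated arrays were all lower. None of the 3 H1 probes was called. H1-2, the H1 gene with the highest probe mean, read 7.92, 7.94 and 7.89 with vehicle and 7.57, 8.75 and 9.14 with NU7441, so that replicate 1 was below vehicle and the other two above it, and its change was 0.57 ± 0.28 (adjusted p = 0.158).

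**Figure D3:**
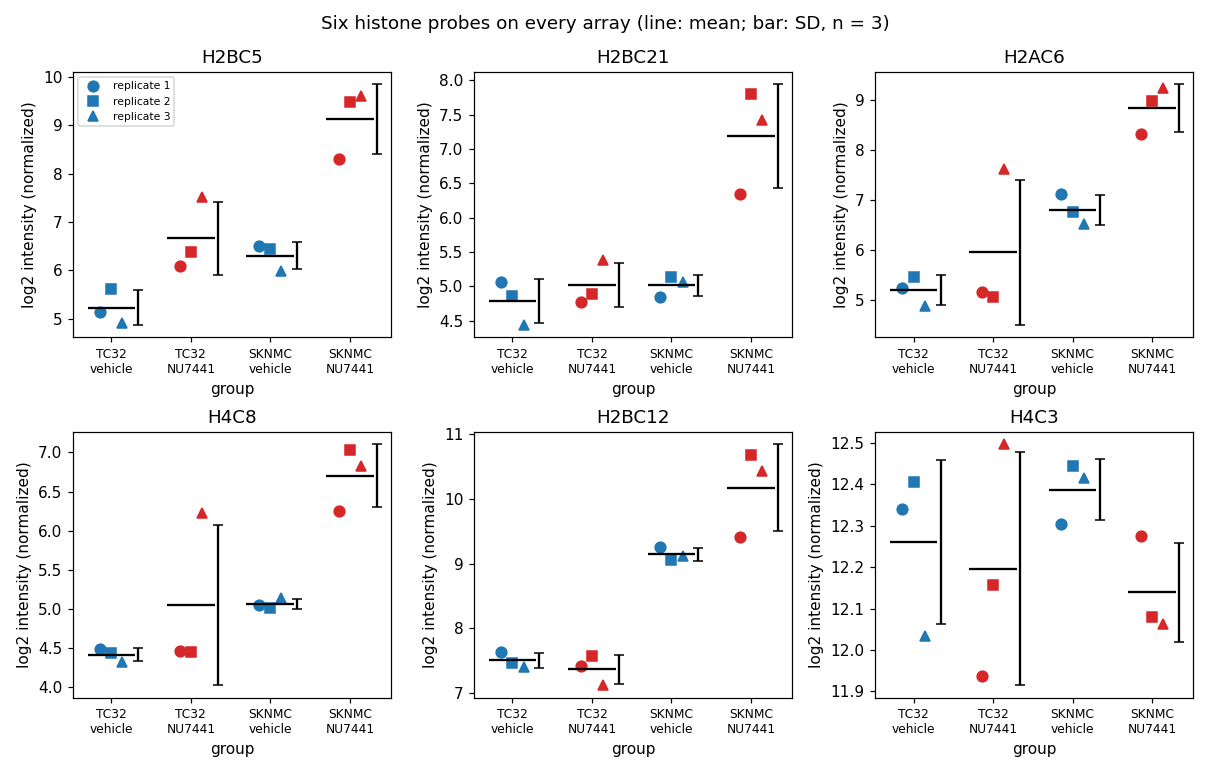
Normalized log2 intensity (y axis, with a different range in each panel) of 6 histone probes in the 4 groups, with 1 marker per array, a line at the group mean and a bar for the SD (n = 3). The treated SKNMC arrays sit above the vehicle arrays for H2BC5, H2BC21, H2AC6 and H4C8, whereas H4C3 lies between 11.9 and 12.5 in all 4 groups.

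Without SKNMC NU7441 replicates 2 and 3 and TC32 NU7441 replicate 3, the 6 probes still called in SKNMC were of H2BC5, H2AC6, H2BC21, H4C8 and H2AC11. The log2 fold changes of the H2BC5 probes were then 2.02 ± 0.26 (limma adjusted p = 6.05e-05) and 1.83 ± 0.17 (2.64e-06). H2AC6 changed by 1.53 ± 0.24 (adjusted p = 0.000429), H2BC21 by 1.35 ± 0.22 (0.000659), H4C8 by 1.22 ± 0.17 (0.000165) and H2AC11 by 1.11 ± 0.18 (0.000679). The treated array in that comparison is replicate 1, whose 28S signal was at the vehicle level (4.33 against 4.17 to 4.50). Its mean over all detected probes of RNAs without a poly(A) tail was 5.44, above the 5.08 to 5.11 of the SKNMC vehicle arrays. The other 8 called probes lost their call without the 2 arrays, and the median over the 52 probes became 0.27. Those 8 are the probes of H2AC18, H2AC19, H2AC8, H2BC12, H3C7, H4C5 and H4C14.

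**Figure D4:**
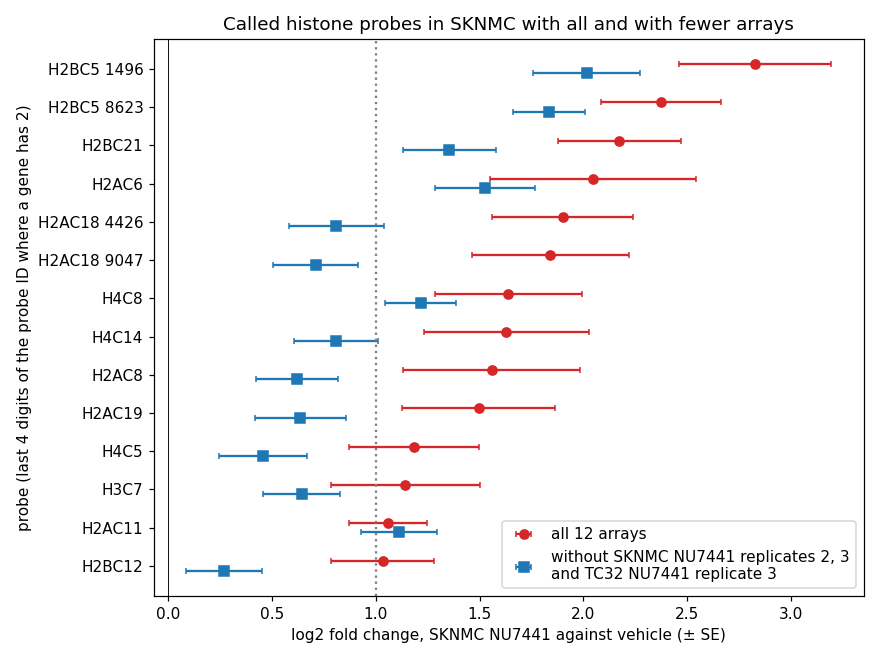
Log2 fold change with NU7441 in SKNMC (x axis; bars are SE) for the 14 called histone probes (y axis), with all 12 arrays and without the 3 arrays of high 28S signal, with a dotted line at the fold minimum of 1. With fewer arrays the probes of H2BC5, H2AC6, H2BC21, H4C8 and H2AC11 lie above that line.

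In TC32, 2 histone probes rose with NU7441 by the test, both of H2BC5, and 0 fell. That is 3.85% of the 52 probes, where 2.17% of all detected probes were called higher and 3.06% lower, so the share is near that of all probes. At an unadjusted p under 0.05, 5 of the 52 differed, where 31.9% of all detected probes did. The median log2 fold change was 0.37 over the histone probes and 0.01 over all probes. H2BC5 read 5.15, 5.62 and 4.91 with vehicle and 6.08, 6.37 and 7.53 with NU7441 on ILMN_1651496, and rose by 1.43 ± 0.37 (adjusted p = 0.0132), or 2.70-fold. On ILMN_1758623 it read 5.31, 5.19 and 5.29 against 5.84, 5.90 and 7.10 and rose by 1.01 ± 0.29 (adjusted p = 0.0227). The treated arrays were above the vehicle arrays on both probes, with replicate 3 the highest. Without the 3 arrays, ILMN_1651496 rose by 1.02 ± 0.20 (adjusted p = 0.0012) and ILMN_1758623 changed by 0.61 and was not called, and the median over the 52 probes was -0.02. Of all probes 1.96% were then called higher and 3.38% lower.

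Replicate 3 differed from the other TC32 treated arrays. It held the highest treated value of 46 of the 52 probes, and 29 probes were at least 1 above the vehicle mean there, against 0 on replicate 1 and 1 on replicate 2. Of all detected probes 4.98% were that far above on replicate 3, and 2.28% and 2.15% on replicates 1 and 2. H2AC17, H2BC8 and H4C1 had changes of more than 1 and were not called. H2AC17 read 4.69, 4.89 and 4.48 with vehicle and 5.19, 5.29 and 8.18 with NU7441, a change of 1.53 ± 0.61 (adjusted p = 0.0936). H4C1 read 4.29, 4.54 and 4.19 against 4.40, 4.34 and 7.56, a change of 1.09 ± 0.62 (adjusted p = 0.250), with only replicate 3 above vehicle. By class, the median change on replicate 3 was 1.77 in H3, 1.54 in H4, 1.22 in H2A, 0.60 in H2B and 0.06 in H1. Probes within or below the vehicle range on that array included H2BC12 (7.12 against 7.41 to 7.64 in vehicle, on ILMN_1796179), H1-2 (6.45 against 6.45 to 6.90) and H2AC25 (6.47 against 6.46 to 6.83). In 6 probes every treated array was above every vehicle array (both of H2BC5, both of H2AC18, H2AC17 and H2BC8) and in 2 (H1-2 and H4C4) every one was below, where 16.2% and 17.9% of all detected probes did so. H4C4 was detected on 0 of the 6 TC32 arrays, so its values there have no order.

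SKNMC NU7441 replicate 1 also differed from the other treated arrays of its line, here by lower values. It held the lowest treated value of 46 of the 52 probes. The median change over the vehicle mean was 0.27 on replicate 1, 0.99 on replicate 2 and 1.07 on replicate 3. The 6 probes at least 1 above the vehicle mean on replicate 1 compare with 26 and 28 on the others, where 1.96%, 5.03% and 5.15% of all detected probes were. Of the 218 detected probes of other RNAs without a poly(A) tail, such as small nuclear and small nucleolar RNAs, 7.34%, 33% and 34.4% were at least 1 above the vehicle mean on these arrays, and 38.5%, 35.8% and 51.4% on TC32 NU7441 replicates 1 to 3. By gene, 49 of 213 such RNAs were called higher in SKNMC and 88 in TC32, with 0 lower. Without the 3 arrays the counts were 16 and 73. The part of this signal in the histone values was not tested, beyond the values without the 3 arrays.

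The responses of the lines were also compared directly, as the TC32 log2 fold change minus that of SKNMC. Of the 52 probes 1 was called lower and 0 higher. That is 1.92%, where 0.363% of all detected probes were called lower and 0.837% higher. The probe was that of H2BC21, which read 5.06, 4.85 and 4.43 with vehicle and 4.78, 4.88 and 5.38 with NU7441 in TC32, where the groups overlapped and the change was 0.23. The difference from the SKNMC response of 2.17 was -1.94 ± 0.42 (limma adjusted p = 0.0336). It lost its call in 9 of the 12 fits that each left out 1 array, with values from -2.37 to -1.64 and adjusted p from 8.86e-05 to 0.107, and kept it without TC32 vehicle replicate 3, TC32 NU7441 replicate 3 or SKNMC NU7441 replicate 1. The median difference was -0.44 over the histone probes and -0.02 over all probes. Without the 3 arrays 5 probes were called lower in this comparison, where 1.27% of all probes were called lower and 1.49% higher. They were H2AC6 (-1.62), H2BC21 (-1.30), H2AC11 (-1.28), 1 probe of H2BC5 (-1.22) and H4C8 (-1.17). H4C8 was detected on 0 TC32 vehicle arrays, so its TC32 response is not measured. H2AC11 was detected on 1 of 3 TC32 vehicle arrays and, among TC32 NU7441 arrays, on replicate 3 alone. This fit leaves replicate 3 out, so the TC32 response of H2AC11 is not measured in it either. H2BC5 was called in both lines with all arrays, and of the 14 probes called in SKNMC it gave the 2 called in TC32.

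**Figure D5:**
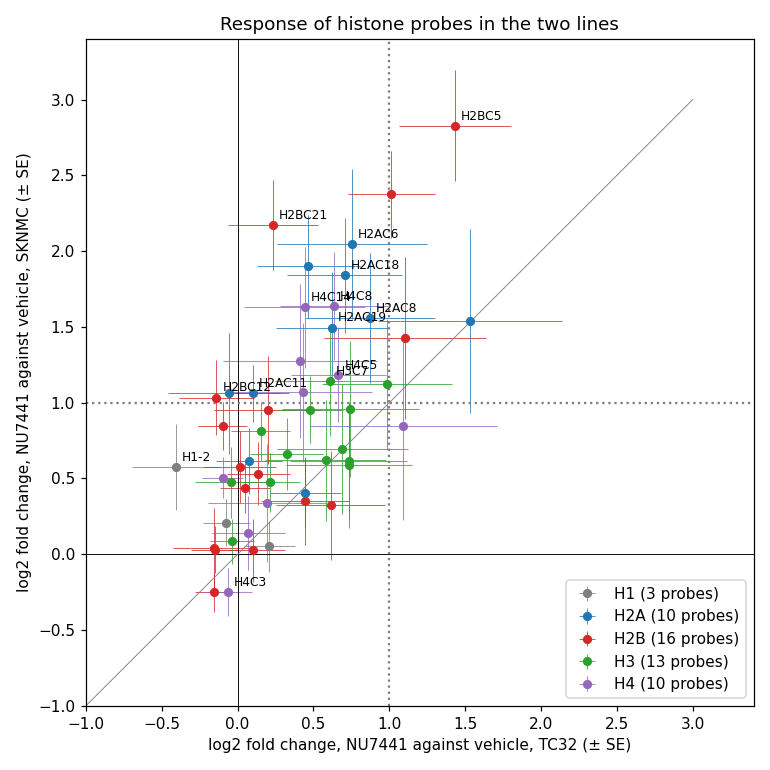
Log2 fold change with NU7441 in TC32 (x axis) against that in SKNMC (y axis) for the 52 histone probes, with 1 point per probe coloured by class, bars for the SE, dotted lines at 1 and a diagonal of equal change. The H2BC5 probes lie at 1.43 and 2.83 and at 1.01 and 2.37, and H2BC21 lies at 0.23 and 2.17.

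Several H2A and H2B genes lie head to head and share the DNA between their starts. Among the matched genes 7 head-to-head pairs had starts within 1000 bases of each other, counting H3C7 with H2BC9, and in each pair at most 1 gene was called in SKNMC. H2BC21 and H2AC20, 236 bases apart, changed by 2.17 and 1.06, and H2AC20 was not called. H2AC6 and H2BC4, 246 bases apart, changed by 2.05 and 0.53, and H2BC4 was not called. H2AC11 (1.06) and H2BC11 (0.58), 248 bases apart, followed the same order, with H2AC11 alone called. H2AC8 and H2BC8, 233 bases apart, changed by 1.56 and 1.43, and H2BC8 missed the adjusted p. H2AC17 and H2BC17, 240 bases apart, changed by 1.54 and 0.03, and neither was called. The difference between the genes of a pair was not tested.

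Few further genes of the pathway were called, each represented by its detected probe with the highest mean. Among one-probe-per-gene values 3.38% of 12171 genes were called higher and 5.55% lower in SKNMC, and 2.53% and 3.89% in TC32. Of 31 measured genes of histone mRNA processing, 0 were called in SKNMC and 1 in TC32, SNRPD3, a core protein of small nuclear ribonucleoproteins, which rose by 1.13 ± 0.24 (adjusted p = 0.00396) and by 1.18 without the 3 arrays. SLBP, which binds the histone stem-loop, read 7.68, 8.01 and 7.50 with vehicle and 8.60, 8.45 and 8.21 with NU7441 in TC32, a change of 0.69 ± 0.19 (adjusted p = 0.0207) under the fold minimum, and by 0.32 in SKNMC (adjusted p = 0.256). NPAT changed by 0.21 in TC32 (adjusted p = 0.567), and its SKNMC change of 0.65 (adjusted p = 0.0395) missed the fold minimum. Of 23 histone chaperones, 0 were called in SKNMC and 1 in TC32, HJURP, the chaperone of the centromeric histone CENPA, which fell by 1.10 on the log2 scale (adjusted p = 0.00936) and by 1.46 without the 3 arrays. Without them 1 chaperone was called higher in SKNMC, NASP, which binds H1 and H3 with H4, at 1.05 (adjusted p = 0.00138) against 0.73 with all arrays.

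Replacement histones are made outside S phase too, mostly from polyadenylated mRNAs. Of 11 measured, 2 were called lower in each line and 0 higher. CENPA, the centromeric H3, fell by 1.85 ± 0.20 in TC32 (adjusted p = 2.36e-05) and by 1.17 ± 0.20 in SKNMC (adjusted p = 0.000753), and MACROH2A2, a macroH2A, by 1.48 ± 0.27 (adjusted p = 0.00161) and 1.52 ± 0.27 (adjusted p = 0.00109). Without the 3 arrays both were called in TC32 and neither in SKNMC. H2AX changed by -0.67 and -0.07 in TC32 and SKNMC, H2AZ1 by -0.46 and -0.38, and H3-3B by 0.16 and 0.50, and none was called. Of 37 measured S phase genes, 0 were called in TC32. In SKNMC, POLE, a catalytic DNA polymerase subunit, rose by 1.17 (adjusted p = 0.0121) and E2F2, a transcription factor, fell by 1.31 on the log2 scale (adjusted p = 0.00154). Both lost their calls without the 3 arrays (0.55 and -0.72), LIG1, a DNA ligase, was called higher in SKNMC (1.02, adjusted p = 0.00236), and CDC45 (-1.17) and RRM2 (-1.53), a helicase factor and a ribonucleotide reductase subunit, were called lower in TC32. The S phase list's mean was 7.94, 7.92 and 7.90 in SKNMC vehicle and 7.96, 7.53 and 7.46 with NU7441, and so was lowest on the arrays where histone signal was highest, whereas in TC32 it was 7.64, 7.71 and 7.75 against 7.43, 7.45 and 7.92. CDKN1A, an inhibitor of cyclin-dependent kinases, rose by 1.86 ± 0.21 in TC32 (adjusted p = 4.72e-05) while the SKNMC change of 0.61 (adjusted p = 0.0496) missed the fold minimum. Its changes without the 3 arrays were 2.07, called, and 0.90, not called. PRKDC, the target of the inhibitor, changed by -0.32 and -0.14 and was not called.

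Markers of other cell states moved with the treatment beside these histone values. The mean level of the 6 fibroblast markers was 7.08 to 7.36 in SKNMC vehicle and 5.74 to 5.99 with NU7441, where 4 of the 6 were called lower, and 5.32 to 5.39 and 4.47 to 4.61 in TC32, where 2 were. The counts were again 4 and 2 without the 3 arrays. The mean of the 6 Ewing sarcoma markers was 8.68 to 8.79 in SKNMC vehicle and 8.51, 7.76 and 7.85 with NU7441, lowest on the 2 arrays of high 28S signal. In TC32 it was 8.61 to 8.68 and 8.23 to 8.32. Of these markers 3 were called lower in SKNMC and 2 in TC32, and 1 and 2 without the 3 arrays. Their part in the histone values was not tested.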

How the data were processed

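Total RNA from TC32 and SKNMC cells was labelled with an Illumina TotalPrep kit and measured on bead arrays, per the labels' protocols. The deposited intensity table gives, per the file headers, a bead intensity without normalization and a detection p-value for each probe and array. GenomeStudio, R 3.0.2 and lumi are listed in the submitters' processing notes, with no roles stated. The submitters' own log2 values, in another deposited table, served as an alternative. With limma 3.58.1 in R 4.3.3, background was corrected by normexp (negative controls inferred from detection p, offset 16), followed by quantile normalization and log2. Quantile normalization hides a shift shared by most transcripts. Groups and replicate numbers came from the sample titles.

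Of 47319 probes, the platform annotation named 1 gene for 30112, more than 1 for 8 and no gene for 17199. Through their Entrez number 30073 probes were matched to a current RefSeq symbol, whether or not it differed. The 21753 probes detected at p under 0.05 on at least 3 of 12 arrays were fitted in 1 limma model with a mean per group, with eBayes and Benjamini-Hochberg adjustment over all of them in two-sided tests. Errors are SE from a spread shared by the 4 groups, so they can understate the spread in SKNMC NU7441 and overstate it in the vehicle groups. A gene detected on no array of a group gives only a bound, written "at least". For it, each array of that group counts as its own signal or the lowest detected signal, whichever is higher. Arrays of the other group count at their own signal. The number of arrays limits the precision.

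Named were all called histone probes, the probe with the highest mean in each class, genes whose probes disagree in call, up to 4 called genes of each further list, and SLBP, NPAT, H2AX, H2AZ1, H3-3B and CDKN1A. Further genes of the lists are not reported here. Other probes were named after their values were seen. The members, lists and tests were chosen with earlier results of these data known. Alternatives covered background, scaling, filters, probe summary, variance model, array weights, replicate block and arrays left out.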

Additional observations from a re-analysis of the deposited data

Results flagged for a closer look

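With all 12 arrays H2BC21 was the 1 histone probe called for a difference in response to NU7441 between the lines, with a TC32 response lower than that of SKNMC by 1.94 on the log2 scale (a difference of -1.94 ± 0.42, limma adjusted p = 0.0336). On the TC32 arrays it read 5.06, 4.85 and 4.43 with vehicle and 4.78, 4.88 and 5.38 with NU7441. On the SKNMC arrays it read 4.85, 5.14 and 5.05 with vehicle and 6.34, 7.80 and 7.43 with NU7441, higher in 3 of 3. The call was lost in 9 of 12 fits that each left out 1 array and in 4 of 13 other alternatives. Without the 3 arrays of high 28S signal the difference was -1.30 (adjusted p = 0.0166), and 5 histone probes were called.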

How the results depend on the processing

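The count of histone probes called higher in SKNMC (14) was 7 with no background correction and with the submitters' log2 table, 9 with an offset of 50, 6 of the 13 probes left with detection at p under 0.01 on all arrays, 6 without the 3 arrays of high 28S signal, and 24 with array weights. The share of all probes called higher, 3.05% otherwise, was 0.952%, 0.896%, 1.30%, 4.76%, 2.05% and 4.46% under these alternatives in that order. The count in TC32 (2) was 1 with no between-array normalization, median scaling, one probe per gene, array weights or without the 3 arrays, and 0 with no background correction, an offset of 50, the submitters' table or no detection filter, where 0.625% to 2.55% of all probes were called higher. Without between-array normalization 0.662% of all probes were called higher and 8.44% lower in TC32 (2.17% and 3.06% with it). The count for the difference between lines (1 lower) was 5 with no between-array normalization or without the 3 arrays, 4 with median scaling, 22 with array weights, and 0 with no background correction, an offset of 50, the submitters' table, no detection filter or the strict filter. Of all probes 0.363% were called lower there in the fit reported above. The share was 1.62% with no between-array normalization, 1.39% with median scaling, 2.51% with array weights and 0.0736% to 0.227% where the count was 0. The count lower in TC32 under vehicle (4) was 7 with no between-array normalization or median scaling, 2 with no background correction, an offset of 50, the submitters' table or no detection filter, and 8 with array weights or without the 3 arrays, where 2.21% and 2.22% of all probes were. Of all probes 2% and 2.08% were called lower under vehicle with no between-array normalization and with median scaling, and 0.68% to 0.979% where the count was 2. The histone median under vehicle (-0.17) was -1.08 under the strict filter. Leaving out 1 array at a time, counts ranged from 10 (without SKNMC NU7441 replicate 2) to 25 (without its replicate 1) in SKNMC, from 0 (without TC32 vehicle replicate 3) to 4 (without TC32 NU7441 replicate 2) in TC32, from 0 to 9 (without TC32 NU7441 replicate 3) for the difference and from 2 to 8 for vehicle. The medians ranged from 0.62 to 1.02, -0.02 to 0.56, -0.82 to -0.25 and -0.20 to -0.13 in the same order. Of the 14 SKNMC calls 10 were kept in all 12 of these fits, and those of H3C7, H2AC8, H2BC12 and H4C5 were lost in some. Of all probes 2.47% and 4.9% were called higher in SKNMC without its NU7441 replicate 2 and without its replicate 1. In TC32 the shares were 1.58% without its vehicle replicate 3 and 2.75% without its NU7441 replicate 2. Without TC32 NU7441 replicate 3, 1.2% of all probes were called lower for the difference and 2.15% for vehicle. Without between-array normalization the median of all probes in TC32 was -0.19, and that of the histone probes 0.20, or 0.39 relative to it. Deviations of same-numbered arrays of a line correlated at r from -0.07 to 0.06. With 3 arrays per group this cannot show whether the replicate number pairs them, and the labels do not say. With the number as a replicate block 17 probes were called higher in SKNMC, 2 in TC32, 1 lower for the difference and 4 lower for vehicle. Of all probes 3.08%, 2.17%, 0.29% and 2.08% were so called. No called value changed sign under the alternatives run, whereas the TC32 median changed from 0.37 to -0.02 without TC32 NU7441 replicate 3. The cause of these changes was not tested.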
